A study of Mus musculus with 6 samples.

Results

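Carboxypeptidase E, its relative carboxypeptidase D and the prohormone convertases are the enzymes that cut protein precursors into mature peptides, and their mRNAs are described here in primary cultured mouse microglia with and without FosB. The 7 genes listed were Cpe, Cpd, Furin, Pcsk1, Pcsk2, Pcsk5 and Pcsk7. Probe sets were taken where the platform's annotation gave exactly 1 gene symbol and that symbol was on the list, which left 6 probe sets, 1 for each gene except Pcsk2, among 23410 probe sets tested. The 6 genes are among 19938 with such a single-gene probe set. Pcsk2 was not analysed here. No probe set that carries several symbols included a gene of the list. The list was selected on the difference of Cpe between fosB-null and wild-type arrays, which had already been seen in these data, and the other genes were added as its relatives. The group differences of the 6 genes below are therefore a description, and no test of them is read.

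The cells came from the cortex of pups aged 2 days, and microglia, the resident macrophages of the brain, were collected after 10 days of culture and replated for 24 h before harvest, with no treatment named. The fosB-null group holds 3 arrays from mice homozygous for fosBG, a null allele of Fosb carried on C57BL/6J by backcrossing to generation N20, and the wild-type group holds 3 arrays from C57BL/6J mice. The null animals were bred by crossing heterozygotes, and the controls are described as C57BL/6J mice, not as their littermates. The allele is constitutive, so all cells of the culture carried it. The labels call the 3 arrays of a group biological replicates and do not say how many pups stood behind each. The SDs therefore describe the spread between these cultures or pools. The standard errors come from limma, which moderates them with the variances of all tested probe sets. Unless stated, they leave out the pairing by replicate number.

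Prohormones and many growth factors are made as long precursors that are inactive until they are cut. Convertases of the PCSK family cut after pairs of basic residues, Pcsk1 and Pcsk2 in the regulated secretory granules of neurons and endocrine cells, Furin, Pcsk5 and Pcsk7 mainly in the constitutive pathway that every cell has. The cut leaves basic residues at the end of the peptide, which carboxypeptidase E removes in granules and carboxypeptidase D in the trans-Golgi network. In the brain Cpe is best known from neurons and endocrine cells and is also made by astrocytes, whereas Cpd and Furin are made widely.

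The values are log2 signals, 1 per probe set and array, and a difference of 1 on this scale is a doubling. Same-numbered arrays of the 2 groups form pairs: across the tested probe sets, 62.3%, 54.7% and 56% held exactly the same value in both arrays of pairs 1, 2 and 3, whereas no other pair of arrays shared more than 3 values. An exact tie of this kind is not a measurement of equality, and no source used here names a step that would make it. Of all tested probe sets, 27.8% were tied in all 3 pairs. Of the 18 within-pair comparisons of the 6 genes, 7 were exact ties. The Fosb probe set gave 8.02 ± 0.11 in wild-type arrays and 7.90 ± 0.13 in fosB-null arrays (SD, n = 3 per group). Whether it reads the mutated stretch of the gene is unknown here, so its level is no check on the genotype. The signals of the 11 measured microglia markers ran from 8.58 to 14.05: Csf1r, the receptor for colony-stimulating factor 1, lay between 13.36 and 13.53 and Cd68, a lysosomal protein of macrophages, between 13.76 and 14.05, while P2ry12, a purinergic receptor of resting microglia, lay between 8.58 and 9.12 and Tmem119 between 8.95 and 9.13.

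The signal of Cpe was lower in the fosB-null array of each pair. Its log2 signal was 8.72, 8.51 and 8.41 in wild-type replicates 1, 2 and 3 and 8.12, 7.70 and 7.56 in the fosB-null arrays with the same numbers. The groups did not overlap, the lowest wild-type array lay 0.29 above the highest fosB-null array, and replicate 1 was the highest array of both groups. Means of 8.55 ± 0.16 and 7.79 ± 0.29 (SD, n = 3 per group) put the fosB-null arrays at -0.75 relative to wild-type (standard error 0.16), a 1.69-fold lower signal. Within the pairs the fosB-null signal was 0.663, 0.568 and 0.555 times that of wild-type, so the pair of replicate 1 showed the smallest difference. The within-pair difference had an SD of 0.14 over the 3 pairs, less than the SD of the fosB-null arrays. Of the 23410 tested probe sets, 17 had a larger difference in either direction, and 9 were lower by more. Cpe was listed for this difference, so its rank follows from that choice and nothing is read from it. No pair of Cpe values was tied. In bulk RNA, fewer cells that make Cpe and less Cpe mRNA per cell cannot be told apart.

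**Figure D1:**
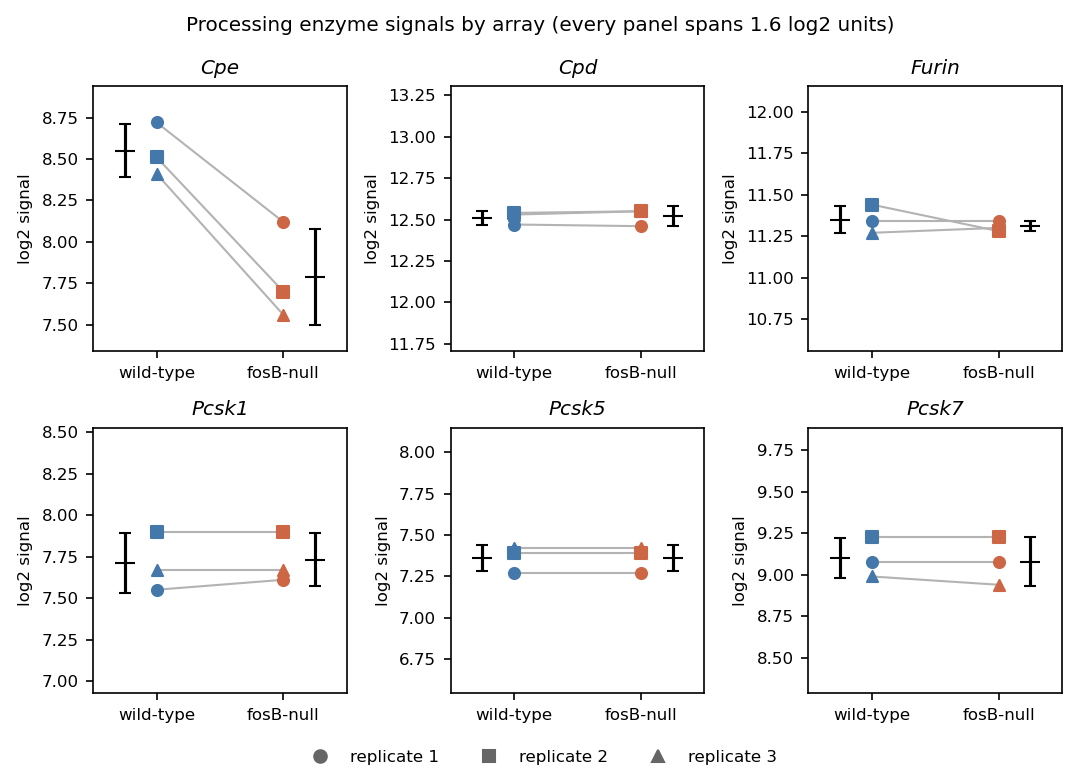
Log2 signal (y axis) of the 6 processing enzyme genes in wild-type (blue) and fosB-null (orange) arrays, with lines joining same-numbered arrays, symbols for the replicate number, and black bars for the group mean ± SD (n = 3). All panels span the same number of log2 units, each around its own centre. The groups are apart for Cpe, which was chosen for its difference, and overlap for the other 5 genes.

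Cpd, the carboxypeptidase of the trans-Golgi network, had a bright signal that hardly varied. The wild-type arrays gave 12.47, 12.54 and 12.53 and the fosB-null arrays 12.46, 12.55 and 12.55. The whole range over 6 arrays was 0.10, against 1.16 for Cpe. The groups overlapped, and the mean difference was 0.01 (standard error 0.07). The pairs differed by -0.01, 0.01 and 0.03, so the sign was not the same in each, and the mean difference also changed sign with median centring of the arrays (-0.01). Cpd was with Cpe the only gene of the 6 with no tied pair.

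Furin, the convertase that most cells use in the constitutive pathway, also overlapped between the groups. Its signal was 11.34, 11.44 and 11.27 in wild-type and 11.34, 11.28 and 11.30 in fosB-null arrays. Pair 1 was exactly tied, pair 2 differed by -0.15 and pair 3 by 0.02. The mean difference was -0.04 (standard error 0.07). Without wild-type replicate 2, the highest array, the difference was -1.7e-05. That setting keeps fosB-null replicate 2, the lowest fosB-null array, so its value also holds the level of the replicate. Furin lies on the chromosome of Fosb, 625 measured genes away, and the other 5 genes lie on other chromosomes.

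The remaining convertases differed between replicate numbers more than between the groups. Pcsk7, a convertase of the trans-Golgi network and cell surface route, gave 9.08, 9.23 and 8.99 in wild-type and 9.08, 9.23 and 8.94 in fosB-null arrays. Pairs 1 and 2 were exactly tied and pair 3 differed by -0.05, for a mean difference of -0.02 (standard error 0.10). Pcsk1, a convertase of neuroendocrine granules, gave 7.55, 7.90 and 7.67 in wild-type and 7.61, 7.90 and 7.67 in fosB-null arrays. Only pair 1 was not tied, at 0.06, and the mean difference was 0.02 (standard error 0.12). Pcsk5, which cuts growth factor and matrix protein precursors, gave 7.27, 7.39 and 7.42 in both groups to 2 decimals. Pairs 1 and 2 were tied and the mean difference was -0.0012 (standard error 0.08). When single arrays were left out these differences lay within -0.07 to 0.12, -0.05 to 0.04 and -0.09 to 0.05 for Pcsk1, Pcsk5 and Pcsk7. A left-out array leaves its paired array in place, so these ranges hold the level of the replicate as well as the difference between the groups.

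The deposited values hold no detection call, so a signal from genes that microglia are not known to use was set beside these levels. Of 1035 olfactory receptor probe sets, genes of the sensory neurons of the nose, 95% had a mean signal of up to 7.34, with a median of 5.89. This comparison was chosen after the values were seen. Pcsk5 at 7.36 ± 0.08 and Pcsk1 at 7.71 ± 0.18 in wild-type arrays (SD, n = 3) were near that level, and the fosB-null mean of Cpe was 7.79. Probe sets differ in brightness for the same amount of RNA, so these signals give no order among the genes.

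Over all tested probe sets limma called 1, or 0.00427%, at an adjusted p under 0.05, and 0 of the 6 enzyme genes. At an unadjusted p under 0.05 there were 169 probe sets, or 0.722%, and 1 of the 6 genes, Cpe. Without wild-type replicate 3 limma called 2 probe sets, with 360 at the unadjusted threshold, against 103 and 110 there without wild-type replicate 1 or 2. Groups without overlap were found for 262 probe sets, or 1.12%, and for 1 of the 6 genes, again Cpe. With the replicate number as a block limma called 0 probe sets, with 541, or 2.31%, at an unadjusted p under 0.05, Cpe among them as 1 of the 6. Nothing is read from these counts for Cpe, which was put on the list for this difference. The median difference of the 6 genes was -0.01, beside 0 over all tested probe sets.

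The rest of the precursor processing pathway was described from 6 lists of 55 genes, of which 53 had a single-gene probe set. limma called 0 of the 53 in either direction, with 1 at an unadjusted p under 0.05. With the replicate block it called 0, with 2 at that unadjusted threshold. Over all tested probe sets 0.722% were under that p without the block and 2.31% with it. Counts of 1 and 2 among 53 are therefore near the background. Their differences ran from -0.62 to 0.18 with a median within 0.01 of 0. The fosB-null mean was below wild-type for 26 genes, above it for 14 and equal to it for 13. Over all tested probe sets 41.3% were below wild-type and 30.9% above. Without wild-type replicate 3 there were 3 genes at the unadjusted threshold and without fosB-null replicate 3 there were 2, with 0 called in both cases. Of all 23410 tested probe sets, 360 and 181 were under it in these 2 settings. None of the 53 reached the size of the Cpe difference. Cpe was chosen for that difference and the 53 were not, so nothing is read from this contrast.

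**Figure D2:**
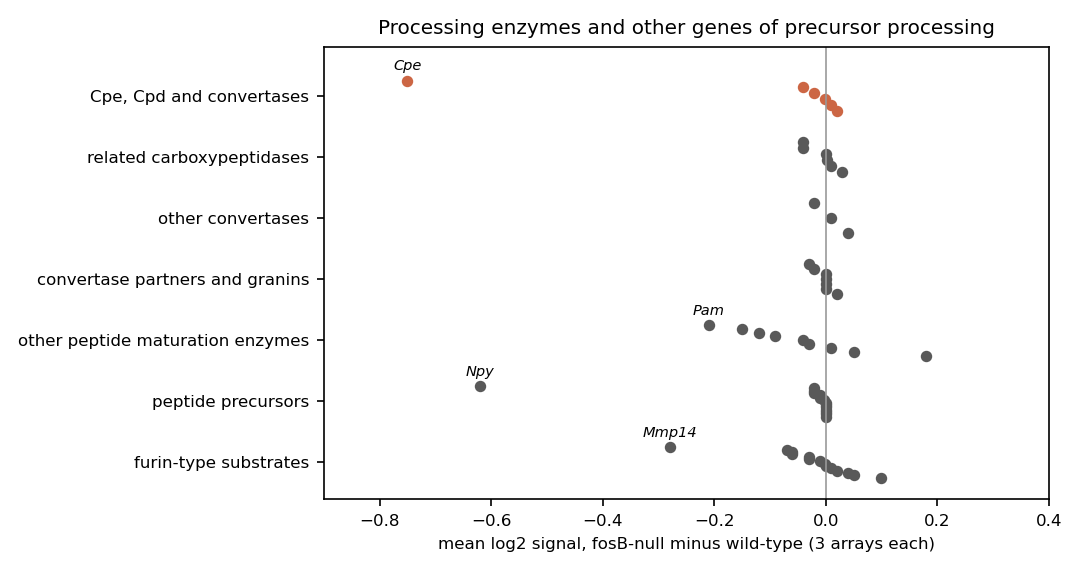
Mean difference in log2 signal, fosB-null minus wild-type (x axis, 3 arrays each), for the 6 processing enzyme genes (orange) and the 53 measured genes of 6 pathway lists (grey), 1 point per gene, with genes at or beyond 0.2 below 0 named. Most points lie within 0.1 of 0, and Cpe at -0.75 and Npy at -0.62 stand farthest out. Cpe was chosen for its difference.

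Npy, which encodes the precursor of neuropeptide Y, was the gene of these lists with the lowest unadjusted p. Its log2 signal was 10.98, 10.53 and 10.15 in wild-type replicates 1, 2 and 3 and 9.998, 9.97 and 9.82 in the fosB-null arrays. The groups did not overlap, and the fosB-null arrays lay close together while the wild-type arrays were spread. Npy was the only 1 of the 53 genes without overlap, beside 1.12% of all tested probe sets. The wild-type mean was 10.55 ± 0.41 and the fosB-null mean 9.93 ± 0.09 (SD, n = 3 per group), -0.62 apart (standard error 0.20). By limma the adjusted p was 1, from 0.0161 unadjusted, so it did not pass the threshold. The replicate block gave limma p-values of 0.0548 unadjusted and 0.674 adjusted. Pairs 1, 2 and 3 differed by -0.98, -0.56 and -0.33, so the pair of replicate 1 was the farthest apart for Npy and the closest for Cpe. Without wild-type replicate 1 the Npy difference was -0.41.

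The other 13 measured peptide precursors differed little. Of the 14 in all, 7 were exactly tied in all 3 pairs, 7 were below wild-type and 0 above. Over all tested probe sets 27.8% were tied in all 3 pairs, 41.3% were below wild-type and 30.9% above. Pomc, the precursor of corticotropin and the endorphins, differed by -0.02, Penk, the enkephalin precursor, by -0.01, and Edn1, the endothelin precursor, by -0.02, each from 1 pair with ties in the other two. Penk at 8.28 ± 0.15 in wild-type arrays (SD, n = 3) differed only in pair 1, by -0.04.

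Enzymes that act on peptides beside or after the convertases differed by -0.21 to 0.18. All 9 were measured, 6 below wild-type and 3 above, with 0 called. Pam, which amidates the end of peptides that Cpe has trimmed, gave 10.29, 10.23 and 10.10 in wild-type and 9.94, 9.91 and 10.15 in fosB-null arrays. It differed by -0.21 (standard error 0.10), and the pairs by -0.35, -0.33 and 0.06, so pair 3 went the other way and the groups overlapped. Qpct, a glutaminyl cyclase, differed by 0.18, with 0.23, 0.42 and -0.12 in the pairs. Its Golgi relative Qpctl differed by -0.15, in each pair below wild-type, and lies 10 measured genes from Fosb. Ctsl, a cathepsin that can also cut prohormones, was bright at 13.34 ± 0.09 in wild-type arrays (SD, n = 3) and differed by -0.12. Qpctl and Ctsl were the 2 genes of the 53 under an unadjusted p of 0.05 with the replicate block. Their limma p-values were 0.0335 and 0.0441, both with an adjusted p of 0.674. Over all tested probe sets 2.31% were under 0.05 in that fit.

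Relatives of the enzymes and the proteins that accompany convertases in granules had small differences. Of the 6 related carboxypeptidases, 3 were above wild-type, 2 below and 1, the matrix-associated Aebp1, at 0, and none differed by more than 0.04 in size. Cpm, a membrane carboxypeptidase, differed by -0.04 and Cpxm1 by -0.04, Cpn1, of plasma, by 0.03 and Cpz, of the extracellular matrix, by 0.01. Among the 3 other convertases measured, Mbtps1, the site-1 protease that activates sterol regulatory proteins, differed by 0.04, Pcsk4 by -0.02 and Pcsk6 by 0.01. Of the 7 convertase partners and granins, which include the Pcsk2 chaperone gene Scg5, 4 were exactly tied in all pairs, 2 were below wild-type and 1 was above. Pcsk1n, which encodes the Pcsk1 inhibitor proSAAS, differed by -0.03, Scg2 by -0.02 and Vgf by 0.02, and Chgb was tied in all pairs.

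Precursors that furin-type convertases are known to cut were measured in 14 of 14 cases, and 0 were called. There were 8 below wild-type, 5 above and 1 at 0, with a median difference of -0.01. Mmp14, a membrane metalloprotease, gave 9.59, 9.45 and 9.14 in wild-type and 8.85, 9.17 and 9.33 in fosB-null arrays. The groups overlapped, and its pairs differed by -0.75, -0.28 and 0.19 around a mean of -0.28 (standard error 0.16). Adam15 differed by 0.10, the growth factor genes Pdgfa and Pdgfb by -0.06 and -0.07, and Igf1, bright at 13.52, 13.55 and 13.42 in wild-type arrays, by 0.02.

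Because Cpe is made by neurons and astrocytes, the markers of other cells that such cultures can hold were set beside it. Of 49 measured markers in 5 lists, limma called 0 with or without the replicate block, and 0 had an unadjusted p under 0.05 in either fit. With 0.722% of all tested probe sets under that p without the block and 2.31% with it, a count of 0 among 49 is near the background. Of the 49, 20 were exactly tied in all 3 pairs, beside 27.8% of all tested probe sets. The linear signals of the 12 astrocyte markers summed to 1932 to 2147 in wild-type and 1932 to 2153 in fosB-null arrays, and 9 of the 12 were tied in all pairs, Gfap, Aqp4 and Slc1a3 among them. The mean signal of 8 of the 12 was at or under 7.34, the level that held 95% of the olfactory receptor probe sets. With so many ties and dim signals this sum had little room to move, and the part of astrocytes in the Cpe difference was not tested. The 10 neuron markers summed to 1550 to 1623 in wild-type and 1551 to 1626 in fosB-null arrays, and 6 of the 10 were at or under that level. No marker is at 0 on this scale; Gfap, the filament protein of astrocytes, lay between 7.08 and 7.24 and Snap25, a synaptic protein of neurons, between 7.09 and 7.53.

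**Figure D3:**
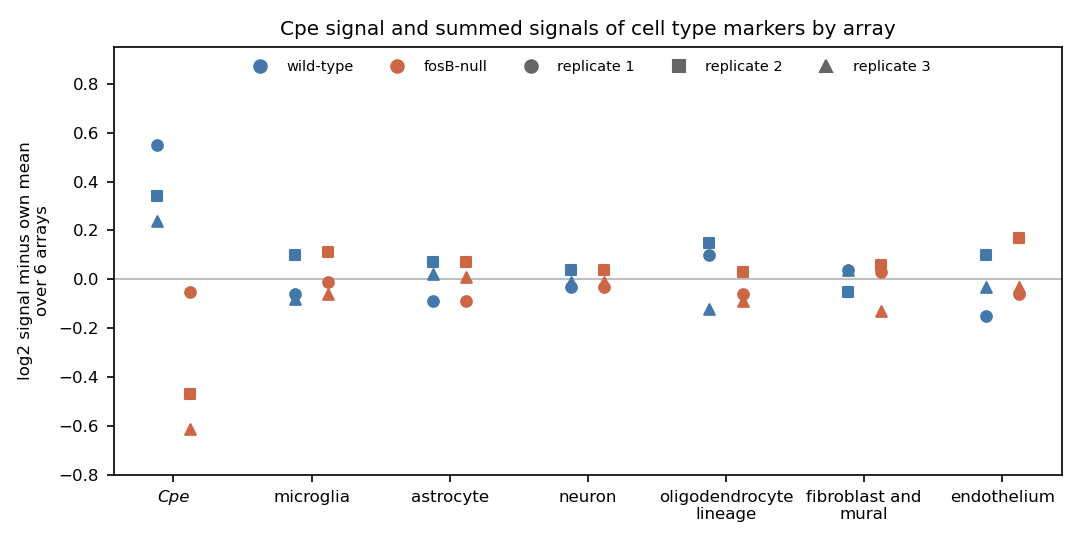
Log2 signal of Cpe and log2 of the summed linear signals of each marker list, minus its own mean over the 6 arrays (y axis), in wild-type (blue) and fosB-null (orange) arrays, with symbols for the replicate number. The Cpe points of the groups are 0.29 or more apart, while the groups overlap in the sum of every marker list. Cpe was chosen for its difference, and 20 of the 49 markers of other cells were exactly tied in all 3 pairs. Within the oligodendrocyte list the groups of Mbp did not overlap. The part of other cells in the Cpe difference was not tested.

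Some markers of the oligodendrocyte lineage and of fibroblasts and mural cells differed within pairs by more than those of astrocytes and neurons did. The 9 measured oligodendrocyte markers summed to 3891 to 4667 in wild-type and 3956 to 4291 in fosB-null arrays, and the log2 sum differed by -0.16, -0.12 and 0.02 in the pairs. Of the 9, 5 were below wild-type, 1 above and 3 at 0, beside 41.3% below and 30.9% above over all tested probe sets. Cnp, the brightest of the list, was exactly tied in all 3 pairs, and Cspg4 differed by -0.36, -0.43 and 0.20 in the pairs. Mbp, the myelin basic protein gene, gave 10.06, 9.86 and 9.76 in wild-type and 9.74, 9.62 and 9.70 in fosB-null arrays. Its groups did not overlap. That was 1 of the 49 markers, beside 1.12% of all tested probe sets. Of the 10 fibroblast and mural markers 6 were above wild-type, 1 below and 3 at 0. Igfbp5, the 1 below, differed by -0.33, with -0.36 in pair 1, an exact tie in pair 2 and -0.64 in pair 3. Postn, the periostin gene, differed by 0.26, with 0.69, 0.67 and -0.57 in the pairs. The 10 markers of that list summed to 2407 to 2568 in wild-type and 2281 to 2598 in fosB-null arrays, and the 8 endothelial markers to 2452 to 2905 and 2601 to 3046. The 11 measured microglia markers summed to 69463 to 78931 in wild-type and 70853 to 79508 in fosB-null arrays. Of these 10 were above wild-type and 1 below, with a median difference of 0.05, beside 30.9% above over all tested probe sets. The part of Mbp-expressing or Igfbp5-expressing cells in the Cpe difference was not tested.

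The genes whose pattern over the 6 arrays was most like that of Cpe were looked for among 2122 genes. Each had a single-gene probe set with a range of at least 0.5. Where a gene had several such probe sets, the one with the highest r was used, also for the most opposed patterns. These correlations are a description over 6 arrays that fall into 2 groups and 3 pairs, and they carry no p. The highest Pearson r was 0.973 for Dhx58, an RNA helicase of the antiviral response, followed by Gadd45b, a stress response gene, at 0.953, Selenow, a selenoprotein gene, at 0.947, Pianp at 0.940 and the adaptor gene Nck2 at 0.936. All 5 had smaller differences than Cpe, which was chosen for its difference, from -0.29 for Selenow to -0.45 for Nck2. Dhx58 gave 9.65, 9.54 and 9.59 in wild-type and 9.42, 9.30 and 9.13 in fosB-null arrays, and like Cpe its groups were apart and its lowest array was fosB-null replicate 3. The most opposed patterns were those of Clec5a, a myeloid lectin receptor, with r = -0.962, Ch25h, the cholesterol 25-hydroxylase, with -0.945, Adam4 with -0.940, Cenpk, a centromere protein gene, with -0.904 and the integrin gene Itga4 with -0.901. Ch25h had the largest difference of these, 0.65, at 9.53, 10.13 and 9.999 in wild-type and 10.09, 10.62 and 10.90 in fosB-null arrays, and its groups overlapped.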

How the data were processed

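RNA of 6 cultures (3 fosB-null, 3 wild-type; 100 ng of total RNA each, per the labels' protocols) was profiled on Affymetrix whole-transcript arrays. The deposited values are log2 signals, 1 per probe set and array, which the authors made in Affymetrix Expression Console (from the submitters' processing notes). For version and normalization, nothing is given in the sources used here. That they are log2 follows from their range (1.73 to 14.6; array medians 7.76 to 7.92). Of 35557 probe sets, the platform annotation gave 21789 exactly 1 symbol, 1621 several and 12147 none; the 23410 with a symbol were tested. Symbols were updated by gene number through a RefSeq table of GRCm38.p6 (names and gene order only), where 21698 of the single-symbol probe sets were found. In lists, the probe set with the highest mean stood for a gene.

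The comparison used lmFit and eBayes of limma 3.58.1 (R 4.3.3, two-sided), without a block. It was adjusted by Benjamini-Hochberg over all tested probe sets at a threshold of 0.05. The fit was also run on simulated data with independent noise of the same SD for every probe set. That simulation held no ties and no pairing by replicate number, so it does not show how the fit performs on values with them. Differences are fosB-null minus wild-type, with the moderated standard error. The deviations of same-numbered arrays from their group means correlated at 0.91, 0.82 and 0.82, and at 0.80, 0.61 and 0.65 over probe sets not tied in that pair, so the numbers pair the arrays; the labels themselves do not explain the numbers. The number of arrays limits the precision. Alternatives were the replicate block, quantile normalization, median centring, leaving out the dimmest 40%, an intensity trend, testing all probe sets, and leaving out each array.

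The members, the gene lists and the markers were chosen with earlier results of these data known. Named are all members; up to 4 genes per pathway list with the lowest unadjusted p and the brightest gene; markers where a result turns on them; Scg5, for its role; and the 5 genes with the highest and the 5 with the lowest Pearson r with Cpe, leaving out genes known only by number, olfactory and vomeronasal receptors and small RNAs.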

Additional observations from a re-analysis of the deposited data

How the results depend on the processing

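The Cpe difference, for which the gene was chosen, was -0.75 with the replicate block (standard error 0.07), a setting that cannot move the estimate, -0.77 with quantile normalization, -0.78 with median centring, and -0.92 (without fosB-null replicate 1) to -0.64 (without fosB-null replicate 3) when single arrays were left out, where groups that do not overlap fix its sign. No alternative called any of the 6 enzyme genes or the 53 pathway genes. Over all tested probe sets limma called 1; with the replicate block it called 0, and when single arrays were left out it called 1 to 2, with 2 without wild-type replicate 3. At an unadjusted p under 0.05 the count of 169 became 541 with the block, 260 with quantile normalization and 736 of 35557 when all probe sets were tested, and lay between 103 and 360 with 5 arrays, and 1 of the 6 enzyme genes was under it each time. In the block fit the prior degrees of freedom were 0.358, against 2.84 without it, and the block changed no other call. Leaving out the dimmest 40% removed Pcsk5, which therefore has no value there. The Npy difference was -0.41 without wild-type replicate 1, -0.82 without wild-type replicate 3 and between these otherwise, with limma adjusted p of 0.674 with the block and 1 in the other 11 alternatives. Small numbers of arrays and exact ties limit what the small differences of the other convertases can show.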
